A study of Mus musculus with 2 samples.

Results

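The cells described here are dividing macrophages of the kidney, chosen by their transcripts from a single-cell RNA sequencing experiment on sorted leukocytes. A cell counted as a cycling macrophage when it held at least 1 unique molecular identifier (UMI, 1 captured transcript) of Mki67 and at least 1 of Top2a, at least 10 UMIs of C1qa per 10000 gene UMIs, and no UMI of Cd3d, Cd3e or Cd3g. Mki67 encodes the Ki-67 protein that coats chromosomes in mitosis, Top2a encodes the topoisomerase that untangles replicated DNA, C1qa encodes a chain of complement C1q that tissue macrophages make, and the Cd3 genes encode the signalling chains of the T cell receptor. The rule found 165 cells among 7015 barcodes, or among the 6601 that held at least 500 UMIs, at least 200 genes and at most 10% mitochondrial UMIs. They were compared with 2953 quiet macrophages, which met the same C1qa minimum and held no UMI of Mki67 or Top2a. The levels of these 6 genes were fixed by the rule, and every difference between cycling and quiet cells is given as a description of 2 classes cut from the same cells.

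The kidneys came from B6 mice with chronic kidney disease after aristolochic acid nephropathy (AAN CKD in the labels), a toxin injury of the proximal tubule. The time label says week 2. Kidney cells positive for CD45, the pan-leukocyte surface marker, were sorted, tagged with hashing antibodies and run on droplet-based sequencing, and the counts were deposited as 2 hashed samples with no untreated control among them. The labels give both under 1 sample, whose title names W1 and W2 and Mouse 1. They do not say whether the hashed samples came from separate mice or separate weeks. A difference between the hashed samples therefore cannot be told apart from one of time. The cells cannot be tested across replicates, and only values are given. Values stand for hashed sample 1 first and hashed sample 2 second, with exact 95% intervals (Clopper-Pearson for shares, conditional binomial for count ratios, order statistics for medians) that cover counting error only. The labels call the cells mesenchymal stem cells; the members carried leukocyte and macrophage transcripts, as described below. Hashed sample 1 held 3315 barcodes and 20743037 UMIs, hashed sample 2 held 3700 and 25314154, and they shared 0 barcodes.

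Macrophages of many organs can renew themselves locally by division, and their number after injury is set both by this division and by monocytes that arrive from the blood and mature in place. Division runs in order through DNA replication, when origins are licensed and fired, nucleotides are made and histones are produced for the new chromatin, and then mitosis, when chromosomes are condensed, attached to the spindle through their kinetochores and pulled apart. Because each step has its own transcripts, the genes a dividing cell holds show roughly where in the cycle it was caught, and the genes it holds besides them show what kind of macrophage it was.

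The cycling macrophages were unevenly spread over the hashed samples, with 32 in the first and 133 in the second. They made up 2.19% (1.5 to 3.08) and 6.22% (5.24 to 7.33) of the C1qa-positive cells, which numbered 1461 and 2137. Every cell holds more UMIs of a marker the deeper it is read, so each cell was also thinned to 2000 UMIs, which left out 170 and 212 shallower C1qa-positive cells and 2 and 1 members. The rule was then applied again to the thinned counts, so the classes were not the same cells. Thinned, the shares were 1.1% (15 of 1358 C1qa-positive cells) and 2.73% (54 of 1981), lower in both but in the same order. Cycling T cells ran the other way: they were 13.4% (11.3 to 15.7) and 8.11% (5.83 to 10.9) of the T cells, or 7.33% and 2.89% thinned. The macrophages were 16.6% of all 193 cycling cells in hashed sample 1 and 59.9% of 222 in hashed sample 2. The hashed samples also differed in their number of T cells, 956 and 481. The parts of cell numbers and cycling shares in this difference were not separated.

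The edge of the rule was soft, with cells close to it inside and outside. Their median was 5 and 6 UMIs of Mki67 and 1.5 and 5 UMIs of Top2a, with a highest Mki67 count of 23 and 52, and 24 of the 165 held exactly 1 UMI of each. Their C1qa ran from 10.1 to 123 UMIs per 10000, and 13 lay between 10 and 20. Just outside the rule, 11 cells held both cycling markers with C1qa from 5 to 10 per 10000, 17 held a Cd3 UMI, 297 C1qa-positive cells held Mki67 alone and 135 held Top2a alone. Cells with 1 of the 2 markers were as common in both hashed samples, at 11.8% and 12.2% of C1qa-positive cells. The members were also the deeper cells, with a median of 11890 and 12141 UMIs against 6051 and 6496 in quiet cells. For this reason 825 quiet cells (160 and 665, 5 per member) were matched to the members by depth, and they reached a median of 11859 and 9590 UMIs.

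Beyond C1qa, the members carried the macrophage program. C1qb was found in 31 of 32 and 133 of 133 of them and C1qc in 32 and 132, while C1qb was found in 58.6% and 51.3% of cycling T cells. T cells should lack it, but these were also chosen to hold little C1qa, so their share is not a free measure of background. Csf1r, the receptor for the macrophage growth factor CSF1, was found in 93.8% and 98.5% of members and in 12.5% and 17.9% of cycling T cells. Fcgr1, the high-affinity Fc receptor CD64, was found in 68.8% and 80.5% of members, and Adgre1, which encodes F4/80, in 53.1% and 64.7%. Each of these receptor genes stood far above its share in cycling T cells of like depth (medians of 11236 and 11049 UMIs), in which Fcgr1 and Adgre1 were each found in 0 of 39 cells of hashed sample 2. Ptprc, which encodes the sorted marker CD45, was found in 81.3% and 88.0%. Timd4, a marker of long-lived resident macrophages in several organs, was found in 0 of 32 and 0 of 133 members (intervals of detection up to 10.9% and 2.74%). It was hardly found in depth-matched quiet cells either, in 0 of 160 and 1 of 665.

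Transcripts of T cells, neutrophils and dendritic cells were sparse in the members. The 12 T cell markers summed to 28.4 and 19.7 CPM (a class's UMIs of a gene per 1000000 of all its UMIs) against 88.1 and 44.3 in quiet cells; the rule barred Cd3 UMIs in members and not in quiet cells, so this order follows in part from the choice of members. Cd4, Cd8a and Cd8b1, which the rule did not use, were at 0 in every member. Neutrophil markers summed to 7.10 and 11.7 CPM against 62.3 and 67.1 in quiet cells, with 7 of 10 at 0, among them S100a9 and Ly6g. By detection the classes were alike, as 9.38% and 12.8% of members and 10.3% and 10.8% of quiet cells held a UMI of these neutrophil markers. The quiet class included a group of 9 cells with S100a9 at 38553 CPM, against 0.778 in other quiet cells. Dendritic cell markers summed to 16.6 and 18.4 CPM against 33.4 and 33.1, with 4 of 10 at 0, among them Flt3 and Ccr7. B and plasma cell markers summed to 61.5 and 108 CPM against 122 and 154, with 5 of 9 at 0, among them Ms4a1 and Igkc. At least 1 UMI of these markers was found in 37.5% and 59.4% of members and 39.7% and 47.3% of quiet cells. Endothelial, stromal and erythroid markers summed to 4.73 and 36.9 CPM against 9.59 and 9.77, so they were higher in members of hashed sample 2. Classical monocyte markers were plentiful and alike in both classes, at 1537 and 1376 CPM in members and 1390 and 1576 in quiet cells. Proximal tubule markers were at 911 and 326 CPM against 419 and 496, and their excess in hashed sample 1 came from few cells: 1 member gave 55 of the 58 UMIs of Slc34a1, the tubule's phosphate transporter. A doublet caller (Scrublet) marked 40 of 6601 cells, 0.606%, and none of the 165 members.

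Across the transcriptome the difference between the classes was mainly a gain. UMIs were summed per class and hashed sample, and 2842 genes passed a floor of 50 CPM in at least 1 of the classes of each hashed sample and are called measured. A gene was counted as higher or lower when the ratio of cycling to quiet cells, after adding 10 CPM to both, passed 1.5-fold the same way in both hashed samples. By this count 269 genes were higher in cycling cells (9.47% of those measured, Mki67 and Top2a among them) and 39 were lower (1.37%), and against the depth-matched quiet cells 241 (8.63%) and 31 (1.11%) of 2791. Of the 269 higher genes 228 were counted so against both sets of quiet cells, but of the 39 lower genes only 15 were. Across genes, the log2 ratios of one hashed sample followed those of the other (Pearson r of 0.866; genes are not independent replicates and the cells of a hashed sample share a library). The median log2 ratio over all measured genes was 0.13 and 0.03, and with edgeR's trimmed-mean scaling, which set it at -0.08 and -0.02, the split of 269 higher and 39 lower became 199 and 68. The 9 lists of cell cycle genes hold 145 genes besides Mki67 and Top2a, of which 84 were measured, 80 counted as higher and 1, Ccnd2, as lower. Of these 84, 13 reached the floor in the quiet cells of both hashed samples; most of the others passed it through the cycling cells and had to differ, so such counts describe the classes and support nothing. With no floor, 131 of all 145 passed the fold upward and 1 downward.

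**Figure D1:**
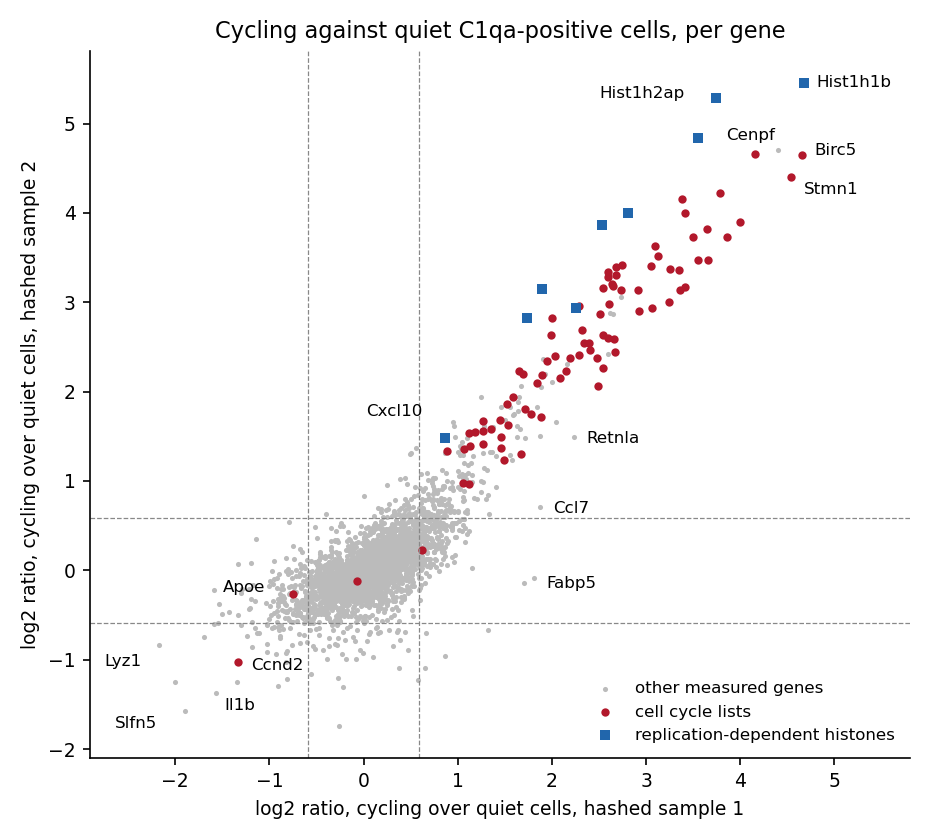
Log2 ratio of cycling to quiet macrophages (CPM plus 10) for each measured gene, hashed sample 1 on the horizontal axis and hashed sample 2 on the vertical axis, with genes of the cell cycle lists as red circles, replication-dependent histone genes as blue squares, all others in grey and the 1.5-fold limits as dashed lines. Of 84 cell cycle genes 80 lie beyond the limits at the upper right and Ccnd2 lies at the lower left, while the other 3 lie near the centre.

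Genes that start and run DNA replication were higher in the cycling macrophages. With no floor, 14 of 15 listed licensing and origin genes, 16 of 17 fork genes and 7 of 8 genes of nucleotide supply passed the fold upward; 8, 7 and 6 of them were measured, of which 1, Pcna, reached the floor in quiet cells too. Mcm5, a subunit of the replicative helicase, was at 92.2 and 93.4 CPM in cycling and 8.16 and 14.7 CPM in quiet cells. Mcm3, another subunit of that ring, was at 109 and 140 CPM against 22.2 and 35.7. The helicase genes were thus present in quiet cells at a lower level, and the same held for Pcna, the sliding clamp of the fork, at 189 and 284 CPM against 56.1 and 66.6. The genes that supply nucleotides were nearer to absent in quiet cells: Tk1, thymidine kinase, was at 175 and 200 CPM against 2.72 and 5.79. Rrm2, the regulated subunit of ribonucleotide reductase, was at 66.2 and 92.8 CPM against 1.43 and 1.64. Gmnn (geminin), which blocks a second licensing of the same origin, was at 144 and 167 CPM against 17.6 and 24.1, and Clspn (claspin), an adaptor of the replication checkpoint, at 97.0 and 132 CPM against 2.85 and 3.46.

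Promoters of this group are shown because replication genes are textbook targets of E2F factors, whose core motif was searched here as TTTCCCGC or TTTGGCGC on both strands. The sequences of Mcm5 (chr8:75109259-75109558, plus strand) and Mcm3 (chr1:20820263-20820562, minus strand) run from 250 bases before to 50 bases after the RefSeq start (build GRCm38.p6), 5′ to 3′ along the gene, and the capitals mark each match, which may be read on the opposite strand.
Mcm5: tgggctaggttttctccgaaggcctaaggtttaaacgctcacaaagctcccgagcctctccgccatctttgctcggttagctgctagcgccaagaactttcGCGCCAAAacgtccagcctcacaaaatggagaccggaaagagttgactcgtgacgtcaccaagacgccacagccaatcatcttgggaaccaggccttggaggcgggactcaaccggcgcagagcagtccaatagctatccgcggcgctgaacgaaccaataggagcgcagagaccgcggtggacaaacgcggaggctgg
Mcm3: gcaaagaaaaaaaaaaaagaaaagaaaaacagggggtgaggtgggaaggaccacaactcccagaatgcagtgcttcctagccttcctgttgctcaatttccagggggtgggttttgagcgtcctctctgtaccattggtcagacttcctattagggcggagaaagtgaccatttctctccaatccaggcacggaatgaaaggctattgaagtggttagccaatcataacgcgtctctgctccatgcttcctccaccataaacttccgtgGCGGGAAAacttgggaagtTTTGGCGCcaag

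Genes of mitosis were also higher. With no floor, 17 of 18 listed kinetochore and spindle checkpoint genes, 32 of 32 genes of the spindle, the chromosomal passenger complex and cytokinesis and 11 of 13 of condensin, cohesin and decatenation passed the fold upward. Of these lists 7, 22 and 8 genes were measured, and 0, 2 and 3 reached the floor in quiet cells too. The kinetochore list summed to 1303 and 1732 CPM in cycling cells against 71.9 and 65.2 in quiet cells. Birc5, the survivin subunit of the chromosomal passenger complex, was at 331 and 350 CPM against 3.50 and 4.32, which is 94.7-fold (62.4 to 149) and 81.0-fold (60.6 to 111). Cells with 1 of the 2 markers lay between, at 31.8 and 50 CPM of Birc5. Cenpf, a kinetochore-associated protein, had log2 ratios of 4.16 and 4.66, from 2.20 and 2.33 CPM in quiet cells. Cdca3, which takes part in triggering entry into mitosis, was at 208 and 187 CPM against 3.63 and 3.20. Stmn1 (stathmin), which destabilises microtubules, was the most abundant of the genes named here from the spindle list, at 695 and 1090 CPM against 20.3 and 42.1, and Prc1, which bundles microtubules of the central spindle, was at 104 and 198 CPM against 0.907 and 1.64. Smc2, a core subunit of condensin, was at 215 and 298 CPM against 11.9 and 25. These genes were at like levels in cycling T cells (Birc5 494 and 328 CPM, Cenpf 353 and 380, Stmn1 1038 and 866).

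Mitotic genes are known to be controlled through the cell cycle genes homology region (CHR), searched here as TTTGAA or TTCGAA on both strands. Cenpf (chr1:189688037-189688336, minus strand) and Cdca3 (chr6:124829926-124830225, plus strand) each held 1 such match close to the start, in capitals in the same window and build.
Cenpf: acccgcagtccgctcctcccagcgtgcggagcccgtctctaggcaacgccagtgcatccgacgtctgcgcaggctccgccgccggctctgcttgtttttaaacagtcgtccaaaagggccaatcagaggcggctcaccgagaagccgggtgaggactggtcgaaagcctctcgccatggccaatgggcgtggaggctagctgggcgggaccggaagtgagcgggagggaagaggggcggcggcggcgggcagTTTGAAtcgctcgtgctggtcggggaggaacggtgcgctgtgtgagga
Cdca3: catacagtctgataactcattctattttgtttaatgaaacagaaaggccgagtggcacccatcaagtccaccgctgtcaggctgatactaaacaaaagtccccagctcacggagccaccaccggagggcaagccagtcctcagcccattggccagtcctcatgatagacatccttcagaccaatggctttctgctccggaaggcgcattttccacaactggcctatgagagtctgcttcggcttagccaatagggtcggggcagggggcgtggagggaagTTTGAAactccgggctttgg

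Over the genes counted as higher, the CHR was the match that differed most by role. A CHR was found in 22 of 30 promoters of the mitosis genes (73.3%, 29 of 37 genes matched by symbol to RefSeq), in 3 of 21 of the replication genes (14.3%, 17 of 21 genes matched) and in 19.2% of all 32851 promoters of this length. An E2F match was found in 5 of 21 promoters of replication genes (23.8%), in 5 of 30 of mitosis genes (16.7%) and in 1.56% of all promoters. CCAAT, searched on both strands, was found in 57.1% and 66.7% of the replication and mitosis promoters and in 37.4% of all. The promoters of the genes counted as lower held a CHR in 13.3% and an E2F match in 0 of 45. A match is a run of letters and not evidence of a bound site.

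Genes for the proteins and histones that pack new DNA were higher as well. Of 13 listed chromatin genes 13 passed the fold with no floor, among them Hmgb2, a DNA-bending chromatin protein, at 925 and 1198 CPM against 136 and 112. Lmnb1 (lamin B1), a scaffold of the nuclear envelope, was at 161 and 204 CPM against 12.6 and 18.6. Outside the lists, 7 of the 12 largest ratios belonged to histone H1, H2A and H3 genes, led by Hist1h1b at 454 and 857 CPM against 8.16 and 9.77. Of 67 replication-dependent histone genes in the files 27 passed the fold upward and 1 downward with no floor, and all 67 summed to 1821 and 4443 CPM against 261 and 310. The sum in the members of hashed sample 2 was over 2-fold that of hashed sample 1. These genes are near-identical copies with mostly non-polyadenylated transcripts, so their separate counts are uncertain. Pclaf, a PCNA-binding factor that no list held, was at 246 and 351 CPM against 2.07 and 3.89.

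The regulators that carry a cell through the cycle were split between those of the later phases and those of entry. Of 20 listed cyclins, cyclin-dependent kinases (CDKs) and partners, 13 were measured and 9 counted as higher, none of which reached the floor in quiet cells of both hashed samples. Cdk1, the mitotic kinase, was at 135 and 177 CPM against 5.18 and 8.04, and its partner Ccnb2 (cyclin B2) was at 114 and 117 CPM against 2.07 and 2.33. Ube2c, which feeds ubiquitin to the complex that destroys mitotic cyclins, was at 192 and 263 CPM against 4.66 and 4.67. The D-type cyclins, which couple growth signals to entry, did not follow: Ccnd1 was at 163 and 237 CPM against 102 and 201 and Ccnd3 at 52.0 and 55.9 CPM against 94.2 and 69.0, neither past the fold in both. Ccnd2 was counted as lower, at 35.5 and 73.7 CPM against 104 and 160. Cycling T cells showed another choice of D cyclin, with Ccnd2 at 174 and 283 CPM and Ccnd1 at 5.07 and 25.7. The macrophages were above the T cells in Ccnd1 and below them in Ccnd2 in both hashed samples. The share of all genes that separate these 2 cell types in this way was not counted. Of the cell cycle transcription factors 1 was measured, Tfdp1, the dimer partner of E2F, at 66.2 and 58.4 CPM against 17.1 and 19.1.

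Most genes that hold cells out of the cycle did not pass the fold between cycling and quiet macrophages. The measured genes of this list had medians of -0.17 and -0.14 on the log2 scale, beside 0.13 and 0.03 over all genes. Of 6 measured CDK inhibitors and quiescence genes, 1 was higher, 1 lower and 4 neither. Of the 5 that reached the floor in quiet cells too, none was higher. Cdkn1a, the p21 inhibitor induced by p53, was at 331 and 286 CPM against 272 and 279, and Cdkn1b, the p27 inhibitor, at 68.6 and 62.1 CPM against 73.6 and 56.9. Cdkn2d, the p19 inhibitor of CDK4 and CDK6, was the one counted as higher, at 52.0 and 69.4 CPM against 21.9 and 15.9. Btg2, an antiproliferative early-response gene, was counted as lower, at 222 and 190 CPM against 399 and 453. Btg1 and Tob2 were below quiet cells in both hashed samples, short of the fold. Btg1 was at 341 and 295 CPM against 407 and 445, and Tob2 at 59.1 and 56.5 CPM against 73.8 and 72.9. Of 5 measured p53 targets and DNA damage genes 2 were counted as higher, among them Atad2, a chromatin ATPase and known E2F target, at 114 and 168 CPM against 22.9 and 24.4. Of the 3 that reached the floor in quiet cells too, none was higher. Bax, which opens mitochondria in apoptosis, was level, at 225 and 248 CPM against 224 and 240.

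To place the cells in the cycle, 40 replication genes and 63 mitosis genes, with Mki67 and Top2a left out, were each summed per cell. The replication sum had a median of 19.1 and 27.3 UMIs per 10000 in cycling macrophages, 3.64 and 3.56 in quiet cells, 3.67 and 4.87 in cells with 1 marker and 43.5 and 44.1 in cycling T cells. The mitosis sum was 44.0 and 71.0 in cycling macrophages, 3.36 and 3.65 in quiet cells, 3.75 and 4.91 with 1 marker and 84.8 and 39.5 in cycling T cells. Cells with 1 marker were therefore close to quiet cells by both sums. A limit was set, after the data were seen, at the 95th percentile of the depth-matched quiet cells, 17.2 for replication and 10.3 for mitosis. Above both limits were 16 of 32 and 85 of 133 members (50% and 63.9%), above the mitosis limit alone 10 and 37 (31.3% and 27.8%), above the replication limit alone 3 and 4, and above neither 3 and 7. These classes are ranges of a score: 6 and 14 members lay within 20% of the replication limit and 3 and 7 within 20% of the mitosis limit. Their shares also follow in part from the rule, which asked for Mki67 and Top2a. Mki67 was at 96.6 and 85.1 CPM above the replication limit alone, 489 and 633 above both and 648 and 1074 above the mitosis limit alone. Replicating cells with little of these 2 genes could be missed, so the shares do not give the phases of all dividing macrophages.

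**Figure D2:**
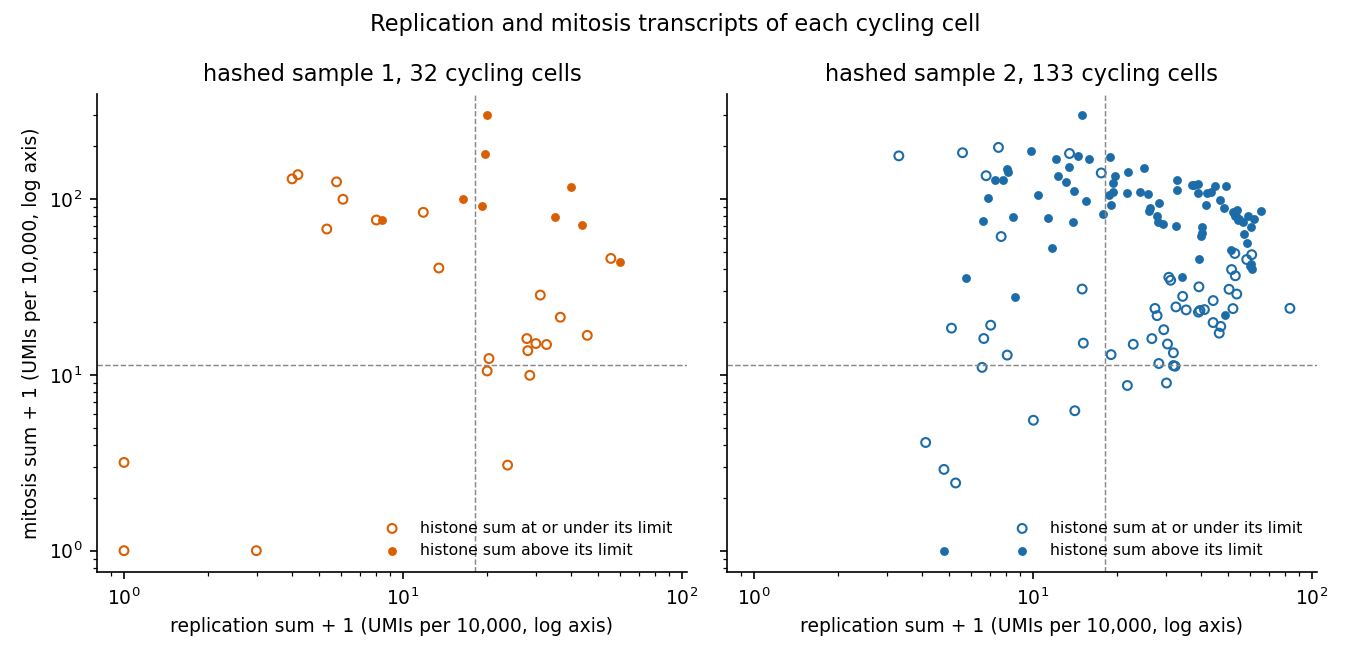
Summed replication genes (horizontal axis) against summed mitosis genes (vertical axis) for each cycling macrophage, in UMIs per 10000 plus 1 on log axes, 1 panel for each hashed sample. Dashed lines are the limits from depth-matched quiet cells and filled points are cells whose histone sum passed its own limit: 26 of 32 and 122 of 133 members lie above the mitosis limit, 19 and 89 to the right of the replication limit.

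Single genes ordered the same cells without being chosen for it one by one. Mcm5 was at 169 and 204 CPM in the few cells above the replication limit alone, 118 and 120 in those above both and 31.2 and 22.8 in those above the mitosis limit alone. Ccnb2 took the opposite order, at 0 and 0, 54.8 and 67.3, and 273 and 269 CPM. Both genes belong to the sums or to the cyclin list, so the order is partly built in for Mcm5. Histone genes were in neither sum. Of these, Hist1h1b was densest in the cells above both limits. It was at 0 and 0 CPM above the replication limit alone, 742 and 1162 above both and 117 and 342 above the mitosis limit alone. Histone transcripts passed their own limit of 8.68 UMIs per 10000 in 9 of 32 members (28.1%, 13.7 to 46.7) and 79 of 133 (59.4%, 50.5 to 67.8), with intervals that cover counting error only. They passed it in 7 of 16 and 54 of 85 cells above both limits. Above the mitosis limit alone it was 2 of 10 and 24 of 37 cells, so in hashed sample 2 the shares of these classes were alike. Each share comes from 1 hashed sample, and the difference between the hashed samples was not tested. The share of members with more mitosis than replication transcripts was 81.3% and 85.7%. It was 76.9% and 78.0% in quiet cells too, and 86.9% and 85.0% in depth-matched quiet cells. Without the genes that reach 50 CPM in quiet cells, a choice made after the data were seen, it was 53.1% and 65.4% of members and 38.7% and 37.8% of quiet cells.

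Most receptors and factors of macrophage upkeep did not pass the fold. Of 9 measured growth factor ligands and receptors none was counted as higher and 1 as lower, with medians of -0.45 and -0.47 on the log2 scale beside 0.13 and 0.03 over all genes. Csf1r was at 364 and 525 CPM against 675 and 666, and at 476 and 565 in the depth-matched quiet cells. Tgfbr1 and Tgfbr2, the TGF-beta receptors, were at 80.4 and 101 CPM against 151 and 151 (93.8 and 109 depth-matched), and at 59.1 and 97.7 CPM against 113 and 139 (67.7 and 119 depth-matched). Il10ra, the IL-10 receptor, was counted as lower at 37.8 and 47.9 CPM against 93.0 and 84.5, but not against depth-matched cells (63.1 and 73.8 CPM). Against depth-matched cells none of the 9 passed the fold, and Csf1r, Tgfbr1 and Tgfbr2 differed by less than against all quiet cells. Of 16 measured macrophage transcription factors 1 was counted as lower: Irf8, a factor of monocyte and dendritic cell fate, at 94.6 and 121 CPM against 220 and 203, though not against depth-matched cells (185 and 171). Maf, which restrains macrophage self-renewal, was at 310 and 560 CPM against 417 and 544.

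To see which macrophages the cycling cells resembled, the quiet cells were clustered without cell cycle, mitochondrial and MHC class II genes, and each cycling cell took the cluster of most of its 15 nearest quiet cells. Of the 14 clusters, called here by their leading genes, 89.0% of quiet cells were given back their own. The cluster led by Retnla, Ear2 and Ccl17 (257, 704 and 379 CPM against 12.2, 64.6 and 70.1 in other quiet cells) held 34, the cluster led by the monocyte-attracting chemokines Ccl12, Ccl7 and Ccl2 (1885, 1231 and 1791 CPM against 338, 255 and 555) held 31, and the cluster led by Lyve1, Ccl8 and F13a1 (134, 1698 and 1007 CPM against 3.12, 193 and 112) held 29. Lyve1 encodes a hyaluronan receptor, Ccl8 a chemokine and F13a1 a coagulation factor subunit, genes known from resident macrophages of connective tissue and vessels. A weakly marked cluster led by Kap, Dppa3 and Ddit4 held a further 22. Kap is a gene of the proximal tubule, and its 27.2 CPM in this cluster is low.

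The Ccl12 and Lyve1 clusters were more common among cycling than among quiet macrophages. The Ccl12 cluster held 6.25% (0.766 to 20.8) and 21.8% (15.1 to 29.8) of members, 2.69% and 11.1% of quiet cells and 1.88% and 13.2% of depth-matched quiet cells. The Lyve1 cluster held 12.5% (3.51 to 29.0) and 18.8% (12.5 to 26.5) of members, 6.60% and 9.91% of quiet cells and 5.00% and 9.47% of depth-matched ones. In hashed sample 1 these shares rest on 2 and 4 members and their intervals reach below the quiet shares, whereas in hashed sample 2 they rest on 29 and 25. The Retnla cluster, at 25% (11.5 to 43.4) and 19.5% (13.2 to 27.3), was above the 13.1% and 16.2% of quiet cells, but in hashed sample 2 it was below the 27.5% of depth-matched quiet cells. The Kap cluster held 21.9% and 11.3% against 19.2% and 13.7%. Members were fewer in the cluster led by Il1b, Gadd45b and Cxcl2, at 9.38% and 6.77% against 10.6% and 12.8% of quiet cells. The cluster led by Vcam1, Selenop and Ang held 0 of 32 (interval up to 10.9%) and 7.52%, against 14.3% and 7.53%. The cluster led by Arg1, Gpnmb and Fabp5 held 1 and 2 members.

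**Figure D3:**
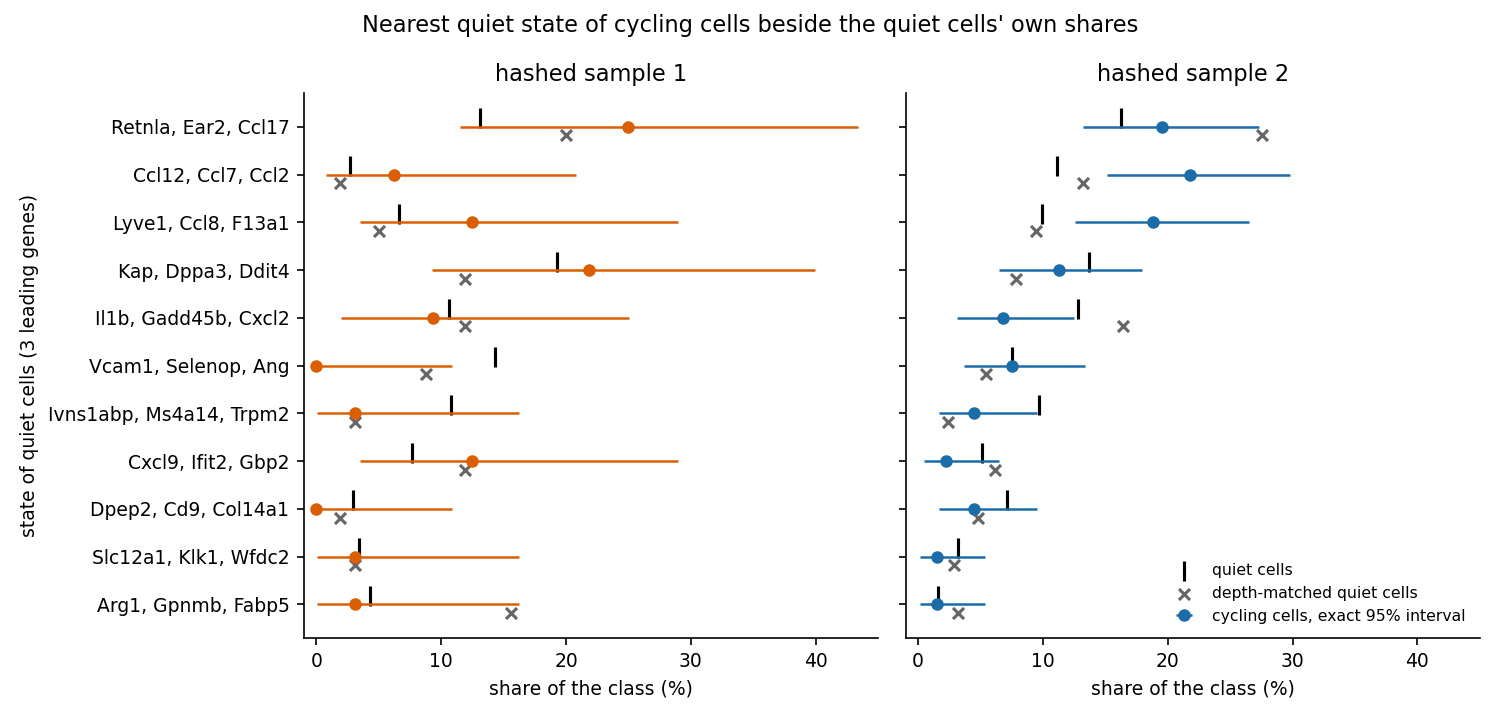
Share of cycling macrophages nearest to each cluster, in percent (points, with exact 95% intervals as lines), beside the shares of quiet cells (black bars) and depth-matched quiet cells (crosses), for the 11 clusters with at least 3 members, 1 panel for each hashed sample. The clusters led by Ccl12 and by Lyve1 hold a larger share of cycling than of quiet cells in both panels, with 2 and 4 cells behind them in hashed sample 1.

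Put the other way, as cycling cells per 100 cycling and quiet cells of a cluster, the rate in hashed sample 2 was highest in the Ccl12 cluster, 13.1% (8.97 to 18.3), and the Lyve1 cluster, 12.8% (8.43 to 18.3). It was 8.50% in the Retnla cluster, 7.14% in the Vcam1 cluster, 5.98% in the Kap cluster and 3.91% in the Il1b cluster. In hashed sample 1 the rates in the same order were 5.71% (0.700 to 19.2), 4.71% (1.30 to 11.6), 4.73%, 0% (up to 2.07), 2.88% and 2.26%. The rate was higher in hashed sample 2 in 10 of the 14 clusters. The clusters differ in depth, with quiet medians over both hashed samples of 7571 UMIs in the Ccl12 cluster, 6642 in the Lyve1 cluster, 8808 in the Retnla cluster and 5366 in the Kap cluster. When every cell was thinned to 2000 UMIs the rates were 3.94% (10 cells), 2.59% (7), 2.79% (13) and 2.28% (11) over both hashed samples, and their intervals overlapped, so at that depth an order among these clusters was not detectable. In hashed sample 2 alone the thinned rate was 4.57% in the Ccl12 cluster and 3.19% in the Lyve1 cluster. It was higher, from few cells, in the clusters led by Vcam1 (5.15%, 7 cells), Ivns1abp (7.94%, 5 cells) and Slc12a1 (7.69%, 2 cells). Over all clusters the rate was 2.54% and 7.15%. With the mix of clusters exchanged, hashed sample 1 would have had 3.02% and hashed sample 2 would have had 6.09%. These values have no interval and no correction for depth, and the part of the mix in the gap was not tested.

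**Figure D4:**
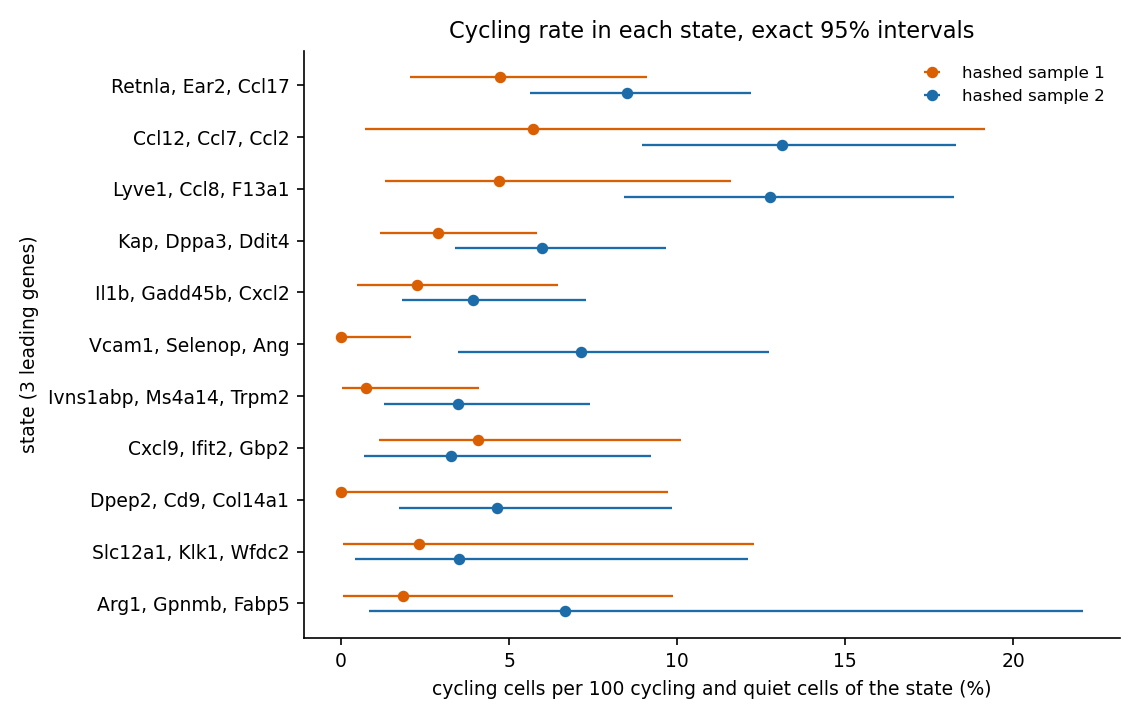
Cycling cells in percent of the cycling and quiet cells of each cluster (points, with exact 95% intervals as lines) for hashed sample 1 in orange and hashed sample 2 in blue, for the 11 clusters with at least 3 members. Hashed sample 2 lies higher in each except the Cxcl9 cluster, with 13.1% in the Ccl12 cluster against 5.71%.

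The main clusters all held cells in replication and in mitosis. Above both limits were 24 of 31 members in the Ccl12 cluster, 21 of 29 in the Lyve1 cluster, 21 of 34 in the Retnla cluster and 10 of 22 in the Kap cluster, and above the mitosis limit alone 5, 5, 10 and 9. The median replication sum was 38.7 UMIs per 10000 in the Ccl12 cluster, 26.9 in the Lyve1 cluster, 25.4 in the Retnla cluster and 17.5 in the Kap cluster. The median mitosis sum ran in the opposite order, at 35.0, 50.4, 74.5 and 82.3. No test was made of these orders, which pool both hashed samples.

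Single genes of the clusters gave a less even picture than the nearest-neighbour shares. Of 5 measured genes in the Cd163, Lyve1 and Cbr2 list none passed the fold: Mrc1, the mannose receptor, was at 568 and 960 CPM against 732 and 919, and Ccl8 at 393 and 503 CPM against 344 and 310. Folr2, a folate receptor of resident macrophages that was not measured by the floor, was found in 15.6% and 15.8% of members, 5.00% and 8.27% of depth-matched quiet cells and 0 of 128 and 0 of 39 cycling T cells. Lyve1 was found in 6.25% and 6.02% of members against 2.50% and 3.91% of depth-matched quiet cells. Cd163 was found in 9.38% and 12.03% of members against 12.5% and 9.62% of depth-matched quiet cells. It was therefore lower in members of hashed sample 1 and higher in those of hashed sample 2. Of 8 measured genes in the Pf4, Ccl7 and Ccl12 list 2 were higher and 1 lower. Ccl7 was at 799 and 712 CPM against 210 and 431, and Ccl2, the main ligand of CCR2, at 1048 and 1233 CPM against 483 and 788, though Ccl2 did not pass against depth-matched cells (873 and 923 CPM). One member gave 31.4% of the Ccl7 and 39.3% of the Ccl2 UMIs in hashed sample 1. Ccl12 was at 289 and 765 CPM against 308 and 589, and its transcript was found in 43.8% and 74.4% of members and 42.5% and 55.0% of depth-matched quiet cells, so it differed in hashed sample 2 alone. Pf4, platelet factor 4, was at 679 and 1266 CPM against 492 and 957. Selenop, a selenium carrier, was counted as lower, at 575 and 816 CPM against 1435 and 1251, though not against the depth-matched cells (811 and 1033).

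Retnla and Cxcl10 passed the fold through single cells. Retnla, a resistin-like protein of alternatively activated macrophages, was at 114 and 282 CPM against 16.3 and 93.4, but 1 cell gave 45 of 48 and 355 of 459 of its UMIs, and it was found in 4 of 32 and 9 of 133 members. Cxcl10, an interferon-induced chemokine, was at 132 and 160 CPM against 63.5 and 44.0, with 39.3% and 64.0% of its UMIs from 1 cell. Neither count therefore describes the class.

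Il1b, the cytokine interleukin 1 beta, was counted as lower, at 94.6 and 157 CPM with log2 ratios of -1.57 and -1.38 to quiet cells, and it was found in 7 of 32 and 31 of 133 members. Fcgr4, an activating Fc receptor, was at 52.0 and 30.1 CPM against 147 and 85.3. Dissociation stress genes, which enzyme digestion is known to induce, had medians of -0.32 and -0.90 on the log2 scale. Of 13 such genes 4 were lower and none higher, beside 1.37% and 9.47% of all measured genes. These 4 were Btg2, Jun, Atf3 and Hspa1b, of which Atf3 was at 59.1 and 64.5 CPM against 111 and 129 and Hspa1b at 61.5 and 44.2 CPM against 116 and 100. Against depth-matched cells Btg2 and Atf3 were still counted as lower, and Jun and Hspa1b (76.8 and 82.5 CPM) were not. The smallest ratios outside the cycle lists were those of Slfn5, a Schlafen family gene induced by interferon, at 11.8 and 16 CPM against 71.0 and 67.5, and of Dpep2, a membrane dipeptidase, at 30.7 and 54.1 CPM against 153 and 142. Txnip, which restrains glucose uptake, was at 130 and 156 CPM against 320 and 267, and Mxd4, which competes with MYC for its partner MAX, at 59.1 and 65.1 CPM against 131 and 132. Both were counted as lower, Mxd4 also against depth-matched cells and Txnip not (204 and 212 CPM). Apoe, the most abundant gene of its list, was at 11107 and 17519 CPM against 32265 and 22810, past the fold in hashed sample 1 alone.

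The summed MHC class II transcripts per cell had a lower median in the members, and the series names MHC class II-negative resident macrophages as its interest. The clustering did not use these genes, although it used the same cells. H2-Aa, H2-Ab1 and H2-Eb1, which encode chains of the class II molecules, summed to a median of 78.9 (interval 54.4 to 211) and 22.5 (11.9 to 48.8) UMIs per 10000 in cycling macrophages. Quiet cells had 198 (186 to 210) and 141 (129 to 153), depth-matched quiet cells 205 and 191, and cells with 1 marker lay between, at 169 and 92.4. The members ran from 2.71 to 500 and from 0.571 to 472, inside the 0 to 809 and 0 to 869 of quiet cells, and cycling T cells, chosen to hold little C1qa, were at 2.63 and 2.67. Members below the median of the quiet cells numbered 22 of 32 (68.8%, 50 to 83.9) and 96 of 133 (72.2%, 63.7 to 79.6). Below 20 UMIs per 10000 were 6 of 32 (18.8%) and 65 of 133 (48.9%), against 11.3% and 22.7% of depth-matched quiet cells, and below 100 were 56.3% and 65.4% against 27.5% and 35.2%. Members with little class II were thus more common in hashed sample 2 than in hashed sample 1.

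By summed counts, 1 of 7 MHC class II genes passed the fold, Ciita, the master regulator of the pathway, at 56.8 and 55.3 CPM against 93.3 and 98.2. The others were lower by less than the fold in hashed sample 1: H2-Aa was at 5241 and 3329 CPM against 7503 and 6129, and Cd74, the invariant chain, at 12947 and 9560 CPM against 18805 and 17164. With the trimmed-mean scaling H2-Aa and Cd74 were also counted as lower. MHC class I genes were level, with none of 6 past the fold and medians of -0.18 and 0.03.

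**Figure D5:**
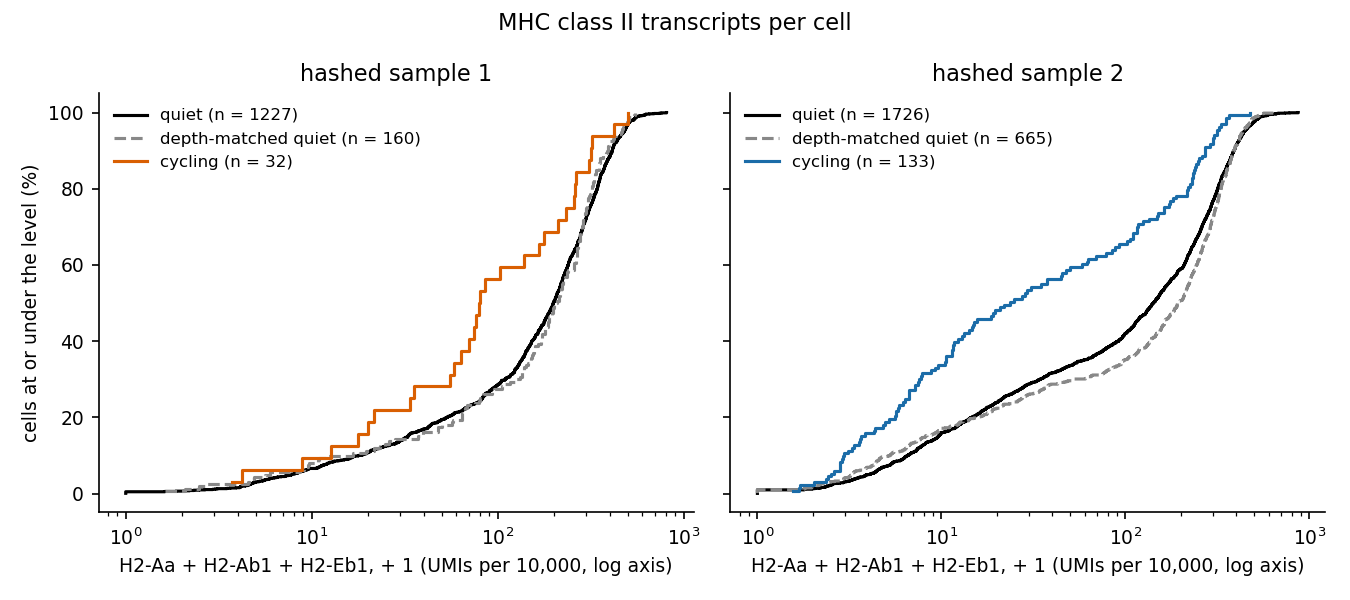
Cumulative share of cells, in percent, at or under each level of the 3 summed class II genes (UMIs per 10000 plus 1, log axis), for cycling (coloured), quiet (black) and depth-matched quiet (grey, dashed) macrophages, 1 panel for each hashed sample. The curve of the cycling cells lies to the left of the quiet curves over most of the range, with medians of 78.9 and 22.5 against 198 and 141.

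The lower class II level was also seen inside the clusters. It was lower in cycling than in quiet cells in 4 of the 5 clusters with at least 3 members in hashed sample 1 and in 9 of 9 in hashed sample 2. Over both hashed samples the Kap cluster had a median of 74.6 UMIs per 10000 in cycling and 269 in quiet cells, and the Il1b cluster 143 and 268. The Retnla cluster was high in both, at 255 and 293. The Ccl12 cluster was low in both, at 10.5 and 24.9, as was the Lyve1 cluster, at 5.69 and 10.2. All 10 cycling cells of the Vcam1 cluster were in hashed sample 2, with a median of 13.4 against 90.2 in its quiet cells there. The exception was the Lyve1 cluster in hashed sample 1, with 47.4 in 4 cycling cells and 17.6 in quiet cells.

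Few genes of engulfment, lysosome and energy lists passed the fold. None of 14 measured macrophage identity genes, 9 complement and engulfment genes, 16 lysosome genes, 16 respiratory chain genes or 14 chaperone and proteasome genes passed the fold. The respiratory chain list had medians of 0.45 and 0.33 on the log2 scale and the glycolysis list 0.68 and 0.33, both above the 0.13 and 0.03 of all genes. Of 11 glycolysis genes 1 was counted as higher, Pgk1, at 177 and 181 CPM against 98.5 and 113, and none was against depth-matched cells. Ldha, lactate dehydrogenase A, was at 383 and 289 CPM against 171 and 210. Of 8 ribosome production genes 2 were higher: Nop56, a nucleolar protein, at 73.3 and 87.3 CPM against 38.6 and 46.3, and Nhp2, also of the nucleolus, at 192 and 162 CPM against 101 and 99.7, the latter not against depth-matched cells (146 and 109). Nop56 passed the floor through the cycling cells only. The Arg1, Mmp12 and Lpl list, known from lipid-handling macrophages of injured tissue, had none of 10 genes past the fold in both. Against depth-matched cells 2 of 11 were lower: Mmp12 at 307 and 159 CPM against 817 and 526, and Spp1 at 348 and 267 CPM against 861 and 644. All quiet cells held Mmp12 at 374 and 378 CPM and Spp1 at 368 and 544. The cluster led by Arg1, Gpnmb and Fabp5 made up 15.6% and 3.16% of depth-matched cells and 4.32% and 1.62% of all quiet cells. The part of this make-up in the 2 ratios was not tested. Arg1 itself, arginase, stood at 594 and 36.3 CPM against 113 and 42.3, with 1 cell giving 45% of its UMIs in hashed sample 1. Vim (vimentin), of the same list, was at 2157 and 1402 CPM against 1017 and 1003.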

How the data were processed

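Kidney CD45+ cells were sequenced with a droplet 3′ method, and the authors deposited raw UMI counts per gene and barcode for each of 2 hashed samples, which per the file headers came from Cell Ranger 6.1.1. Seurat 4.3.0 and the mm10 build are named in the submitters' processing notes. The spatial sample was not analysed here. Barcodes with 500 UMIs, 200 genes and at most 10% mitochondrial UMIs were kept, and 414 were removed. Rows of hashtag antibodies stayed out of all sums.

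UMIs were summed per class and hashed sample, as CPM of the class total with a pseudocount of 10, a floor of 50 CPM and a fold of 1.5. The fold count was tested on simulated counts. No replicated groups exist, so no model was fitted; edgeR 4.0.16 gave only the trimmed-mean factors. Quiet cells were clustered with scanpy 1.11.5 (2000 variable genes, 30 components, 15 neighbours, Leiden resolution 1). Doublets were marked with Scrublet and kept.

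Named genes were up to 4 per list with the largest mean log2 ratio, the 12 largest and 12 smallest outside the cycle lists, and the leading genes of each cluster; others named were chosen after their values were seen. The members and gene lists were chosen with earlier results of these data known. Total counts were 20743037 and 25314154 UMIs, so the number of members, 32 and 133, limits precision more than depth. The counts with no floor and by floor in quiet cells were added after seeing the data. Some genes of the lists are not reported here.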

Additional observations from a re-analysis of the deposited data

How the results depend on the processing

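Over all alternatives, 142 values of the main results kept within the limits set for a stable value (1.5 times for a count, the counting interval for a share) and 39 moved; of the single genes, 2278 values kept their side of the fold with the same direction, 148 fell short of it, 57 newly passed it and 1 reversed. The reversed value was the mean log2 ratio of Retnla, -0.61 when members needed 20 UMIs of C1qa per 10000. The 269 genes counted as higher became 49 when 1 marker was enough for a member, 542 with a floor of 10 CPM, 151 with 100 CPM, 146 at a fold of 2, 554 in hashed sample 1 alone and 175 with a pseudocount of 50. The 39 lower genes became 2, 87, 24, 5, 211 and 13 under these settings in turn, 108 in hashed sample 2 alone, 60 with a pseudocount of 1, 60 when C1qb and C1qc had to reach 10 UMIs per 10000 as well, 65 with at least 2 UMIs of each marker and 68 with trimmed-mean scaling. Cycling cells were 14.0% and 18.4% of C1qa-positive cells with either marker, 1.1% and 4.02% with 2 UMIs of each, and 1.1% and 2.73% thinned. More mitosis than replication transcripts were found in 94.2% of members of hashed sample 2 with 2 UMIs of each marker, and in 53.1% and 65.4% with the genes plentiful in quiet cells left out. The class II median was 64.6 UMIs per 10000 in hashed sample 2 with either marker; in quiet cells it was 213 and 156 with at most 5% mitochondrial UMIs, and 191 in depth-matched cells of hashed sample 2. The Ccl12 cluster's 18.8% of members became 26.1% without the genes higher in members and was 6.25% in hashed sample 1 alone. The Kap cluster's 13.3% became 21.9% in hashed sample 1 alone, 2.42% by list scores, 20% at resolution 0.5 and 6.67% at 1.5; the Lyve1 cluster's 17.6% became 44.2% at resolution 0.5, where the Ccl12 cluster had no match and no value; and the Retnla cluster's 20.6% became 10.3% by list scores and 29.1% at 0.5. The low-gene phase share and the removal of tubule-rich cells were alternatives chosen after seeing the data. Causes of these moves were not tested. No paired analysis was possible because the labels give 1 sample with no replicate numbers. The number of cells limits the smaller class most: with 32 members, a share of 0 in hashed sample 1 allows up to 10.9%. Depth limits the call of both markers, as the lower shares in thinned cells show.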

Other observations

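Besides macrophages and T cells, 66 cycling cells (25 and 41) held neither a Cd3 UMI nor 10 UMIs of C1qa per 10000, with a median of 1.71 and 0.917 UMIs of C1qa per 10000, and they entered no comparison. The 17 cells left out for a Cd3 UMI (8 and 9) had a median C1qa of 31.3 and 36.3 per 10000.

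By scores of the marker lists, in place of clusters, the largest share of members in hashed sample 1 was nearest to the Arg1, Mmp12 and Lpl list. It was 40.6%, against 10.8% of quiet and 27.5% of depth-matched quiet cells. In hashed sample 2 this list held 14.3%, against 11.1% and 15.3%. The largest share in hashed sample 2 was that of the Cd163, Lyve1 and Cbr2 list. This list was nearest for 18.8% and 24.1% of members, 12.9% and 14.8% of quiet cells and 8.13% and 10.5% of depth-matched ones. The Pf4, Ccl7 and Ccl12 list was nearest for 0% and 20.3% of members, 5.46% and 14.4% of quiet cells and 6.25% and 15.3% of depth-matched ones. The Fcgr4 and Apoe list was nearest for 0% and 3.01% of members, 21.8% and 9.04% of quiet cells and 11.3% and 6.77% of depth-matched ones. The profiles over 2000 variable genes correlated best with the Retnla cluster in hashed sample 1 (Pearson r of 0.920 across genes) and with the Ccl12 cluster in hashed sample 2 (0.946); these are descriptions across genes of pooled cells, and the clusters with the fewest UMIs had the lowest values.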
